A study of Rattus norvegicus with 7 samples.

Results

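Expression of 10 circadian clock genes was followed in the meibomian gland, which releases the lipids of the tear film at the lid margin, after ultraviolet B (UVB) irradiation of the lid. The genes were Clock, Per1, Per2, Per3, Cry1, Cry2, Nr1d1, Nr1d2, Dbp and Tef, chosen by symbol. All 10 of the 10 symbols were found among the 17246 genes analysed, and all 10 passed the low-count filter. RNA came from wild-type female Sprague-Dawley rats aged 3 months, with 4 libraries in the control group (listed as given no treatment) and 3 in the UVB group. In the UVB group the shaved upper lids received 300 mJ/cm2 in 5 min daily over 5 days. The labels attach this protocol to every sample and give neither the shaving of controls, the interval from the last exposure to dissection, nor the time of day or light cycle at dissection. Each library's column carries a number of its own, but no label says what it stands for or that the libraries came from separate animals, so p-values measure the spread between these libraries. Letters name the libraries within each group, a to d for the controls and a to c for UVB; they imply neither pairing nor order.

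The clock is a transcription loop that runs in nearly every cell. CLOCK, or its relative NPAS2, pairs with BMAL1 and drives genes through E-boxes, among them those of the PER and CRY proteins, which then inhibit the pair. The nuclear receptors NR1D1 and NR1D2 (REV-ERB alpha and beta) repress Bmal1 at ROR elements, where the ROR receptors activate it, and DBP and TEF carry the rhythm to genes with D-boxes. Transcripts of Nr1d1, Dbp and the Per genes therefore peak at another time of day than Bmal1 and Npas2. Per1 and Per2 also respond directly to glucocorticoid hormone. In skin the clock is known for timing cell division and the repair of ultraviolet damage.

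To show where clock elements lie in the 2 called genes and in Per1 and Per2, which are set side by side later, the 250 bases before their annotated starts are printed here. They come from RefSeq with GRCr8 coordinates and run 5′ to 3′. Capitals mark a match on either strand to the E-box CACGTG, the related E′-box CACGTT, the D-box TTATGTAA or TTACGTAA, the ROR element core TAGGTCA or TGGGTCA, or the cyclic AMP element TGACGTCA. No printed match overlaps another.
Nr1d1 first start, chr10:84231813-84232062, minus strand: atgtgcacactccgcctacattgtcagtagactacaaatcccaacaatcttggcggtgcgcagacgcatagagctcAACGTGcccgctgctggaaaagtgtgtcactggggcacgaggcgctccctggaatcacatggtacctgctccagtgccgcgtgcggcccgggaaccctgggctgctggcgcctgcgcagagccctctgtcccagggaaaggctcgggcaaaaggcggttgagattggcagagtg
Nr1d1 second start, chr10:84229455-84229704, minus strand: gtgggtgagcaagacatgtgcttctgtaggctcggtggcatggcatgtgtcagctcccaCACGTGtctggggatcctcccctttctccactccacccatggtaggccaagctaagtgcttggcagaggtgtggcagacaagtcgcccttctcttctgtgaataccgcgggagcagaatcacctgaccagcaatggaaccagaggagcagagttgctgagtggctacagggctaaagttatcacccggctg
Nr1d2, chr15:9954784-9955033, plus strand: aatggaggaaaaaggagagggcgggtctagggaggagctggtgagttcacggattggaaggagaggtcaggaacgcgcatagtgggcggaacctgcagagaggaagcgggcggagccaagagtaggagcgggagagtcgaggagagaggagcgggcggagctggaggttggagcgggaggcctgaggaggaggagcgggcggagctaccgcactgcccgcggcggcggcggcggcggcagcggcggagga
Per1, chr10:54304126-54304375, plus strand: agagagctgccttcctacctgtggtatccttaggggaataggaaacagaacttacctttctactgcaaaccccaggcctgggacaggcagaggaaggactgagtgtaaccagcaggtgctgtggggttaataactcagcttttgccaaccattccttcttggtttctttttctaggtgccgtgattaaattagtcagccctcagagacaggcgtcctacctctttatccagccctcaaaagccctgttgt
Per2, chr9:99496994-99497243, minus strand: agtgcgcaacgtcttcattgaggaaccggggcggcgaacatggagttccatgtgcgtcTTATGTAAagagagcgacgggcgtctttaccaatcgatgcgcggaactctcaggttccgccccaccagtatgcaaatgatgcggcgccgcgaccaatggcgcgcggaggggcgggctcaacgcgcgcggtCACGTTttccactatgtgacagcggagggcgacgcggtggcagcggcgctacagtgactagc

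The second Nr1d1 start had an E-box 191 bases before it, and the first an E′-box 174 bases before it. Per2 held an E′-box 62 bases and a D-box 192 bases before its start. The windows of Nr1d2 and Per1 held none of these letters. Whether the annotated starts are those used in this gland was not tested, and sequence outside the windows was not searched. A window without a match therefore does not show that the gene's promoter lacks the element. This limit matters most for Per1 and the second Clock window, whose G and C content was lowest among the clock gene windows, at 49.2% and 28%. Of the 10 genes 9 had a window, 11 windows in all, and Cry1 had none in the table. An E-box lay in 2 of the 11 (Nr1d1 and Tef), an E′-box in 3 (Nr1d1, Cry2 and Per2) and a D-box in 1. Among all 33469 windows of this length, 5.59% held an E-box, 4.07% an E′-box, 0.932% a D-box, 5.62% a ROR element core and 1.59% a cyclic AMP element. These are matches of letters and say nothing of binding in these samples.

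Libraries held 20680237 to 28784941 counts, and the 10 genes had between 380 and 3204 counts in a library. The coefficient of variation was smallest for Clock in controls (3.33%) and for Cry2 (2.12%) and Nr1d2 (2.25%) after UVB. There counting error can be a large part of the spread between libraries. In controls Cry2 and Nr1d2 varied more, by 10.8% and 9.44%. Markers of the gland's lipid cells were abundant in both groups. The 8 listed meibocyte markers summed to 92321 to 113820 CPM (counts relative to library size after TMM scaling) in controls and 88296 to 108370 CPM after UVB. Most of that sum was Scd, which averaged 79749 CPM in controls and 77588 CPM after UVB. Awat2 averaged 9122 and 5782 CPM. Markers of other cell types were called at various shares, against 6.30% of all 13709 genes tested called higher and 6.74% lower (edgeR, adjusted p under 0.05). Of the tested markers, 4 of 8 were called higher after UVB for macrophages (summed level 77.8 to 138 CPM in controls, 120 to 219 CPM after UVB), 3 of 4 for mast cells (36.6 to 51.8 and 61.4 to 78.1 CPM) and 3 of 5 for fibroblasts (2419 to 3756 and 2456 to 4094 CPM). For endothelium 2 of 5 were higher (85.3 to 104 and 119 to 138 CPM). For neutrophils it was 2 of 3 (251 to 274 and 293 to 371 CPM, with Elane at 0 counts). Basal keratinocytes had 2 of 5 higher (9530 to 11924 and 11973 to 12827 CPM) and T cells 1 of 3 (2.10 to 2.39 and 1.59 to 3.97 CPM). The basal keratinocyte sum was mostly Krt14, called at 5100 and 7059 CPM, and Krt5, not called at 4536 and 4469 CPM. That list's median log2 fold change was -0.021, with 2 of 5 above 0. The neutrophil sum was mostly S100a8, which was not called, and S100a9. Csf3r, also called, averaged 0.220 CPM in controls and 2.02 CPM after UVB. The mast cell sum was mostly Kit and the fibroblast sum mostly Col1a1 and Col3a1, none of them called. The T cell gene called was Cd8a, at 0.238 and 1.37 CPM. Cd3e and Cd3g were not called, with log2 fold changes of -0.55 and -0.27. Lower were 2 of 8 for meibocytes, Awat2 (log2 fold change -0.66, edgeR adjusted p = 0.00453) and Plin2 (-0.45, adjusted p = 0.00826). Of the 8, 4 had a log2 fold change above 0. A single gene was called lower for Schwann cells, 1 of 6 (151 to 179 and 107 to 132 CPM). Skeletal muscle also had a single gene called lower, 1 of 7 (2355 to 3204 and 1620 to 2811 CPM). So did adipocytes, with 1 of 4 (31.5 to 66.2 and 30.9 to 42.2 CPM). In each of these lists 0 tested markers had a log2 fold change above 0, though the others were not called. The median log2 fold changes were -0.40 for Schwann cells, -0.38 for skeletal muscle and -1.54 for adipocytes. The 6 suprabasal keratinocyte markers summed to 3960 to 4924 CPM in controls and 4313 to 6427 CPM after UVB. In tissue RNA, fewer cells of a type and less RNA per cell cannot be told apart. The part of these cell types in the clock gene results was not tested.

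Levels were first set in order within the controls by TPM (which corrects for transcript length as well as depth). Dbp was the most abundant at 79.5 ± 15.2 TPM (SD, n = 4), next to Nr1d1 at 70.6 ± 16.3, and their control ranges overlapped. Tef (36.5 ± 6.70), Per1 (27.4 ± 11.9) and Nr1d2 (26.1 ± 2.80) came next, each below every Nr1d1 value; Per1 overlapped both Tef and Nr1d2. Clock, at 21.5 ± 0.685 TPM, lay below all 4 Nr1d2 values and above all 4 Per3 values (15.6 ± 2.70). Per3, Cry1 (12.2 ± 2.69), Cry2 (11.2 ± 1.22) and Per2 (9.22 ± 3.56) overlapped each with the next. After UVB Nr1d1 stood at 33.8 ± 8.32 TPM (SD, n = 3), near Tef at 34.6 ± 4.38, while Dbp remained highest at 60.9 ± 10.3.

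The main comparison asked which clock transcripts differed between UVB and control glands. Both genes that passed the test encode REV-ERB repressors: Nr1d1 was 2.13-fold lower and Nr1d2 1.25-fold lower after UVB. They were 2 of 10 clock genes with an adjusted p under 0.05 in edgeR's quasi-likelihood test, against 13.0% of all 13709 genes tested, of which 6.74% were lower and 6.30% higher. No clock gene was called higher, a count of 0 in edgeR, DESeq2 and limma-voom alike. At an unadjusted p under 0.05 edgeR gave 1 higher (Clock) and 3 lower, and DESeq2 and limma-voom each gave 2 higher and 3 lower. In 4 of 10 clock genes the groups were fully separate, 3 lower (Nr1d1, Nr1d2, Dbp) and 1 higher (Clock), against 26.6% of all genes (13.8% lower, 12.8% higher). The median log2 fold change was -0.12 over the 10, and -0.0058 over all genes.

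**Figure D1:**
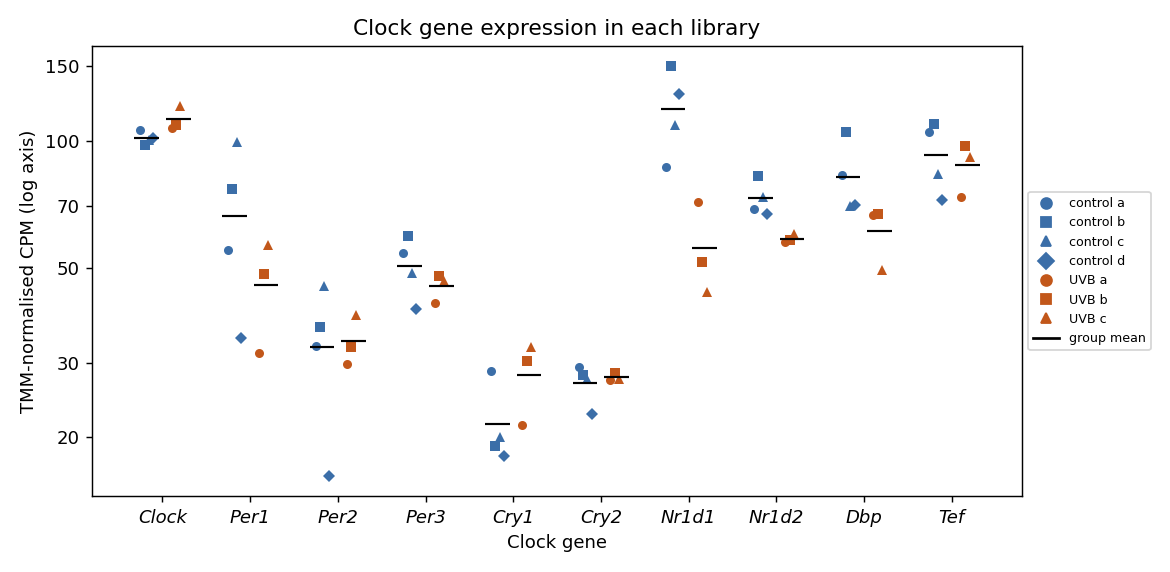
Expression of the 10 clock genes in each of the 7 libraries, in TMM-normalised CPM on a log axis, with a bar at each group mean. Nr1d1 ran from 86.7 to 149.6 CPM in controls and from 44.1 to 71.5 CPM after UVB, while Per1 and Per2 spread widely among the controls.

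Nr1d1 (NCBI gene 252917), the REV-ERB alpha gene, measured 86.7, 149.6, 109 and 129 CPM in controls a to d. It measured 71.5, 51.6 and 44.1 CPM in UVB a to c. Every UVB library lay below every control, and the nearest values were those of control a and UVB a. The means were 119 ± 26.9 (SD, n = 4) and 55.7 ± 14.2 CPM (SD, n = 3). The log2 fold change was -1.09 (SE 0.22, 95% interval -1.61 to -0.57, edgeR adjusted p = 0.0218). The call was lost without control d (-1.04, adjusted p = 0.0578) and without UVB b (-1.04, adjusted p = 0.0747).

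Nr1d1 overlaps Thra, the thyroid hormone receptor alpha gene, in the GRCr8 annotation, and whether counting used strand is not stated. Counts of both genes were not whole in 7 of 7 libraries, and their sum was whole in all 7 to within 0.01 counts. Summed, the pair measured 131, 196, 155 and 179 CPM in controls a to d and 114, 84.1 and 81.0 CPM in UVB a to c. The groups again did not overlap, and the sum fell by 0.83 on the log2 scale (SE 0.17, edgeR adjusted p = 0.0182). Thra alone had a log2 fold change of -0.33 (SE 0.092, adjusted p = 0.0421).

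Nr1d2 (NCBI gene 259241), the REV-ERB beta gene, measured 68.9, 82.6, 73.7 and 67.2 CPM in controls a to d and 57.7, 58.2 and 60.2 CPM in UVB a to c. The UVB values were close together and all below the controls. The means were 73.1 ± 6.90 (SD, n = 4) and 58.7 ± 1.32 CPM (SD, n = 3). The log2 fold change was -0.32 (SE 0.078, 95% interval -0.49 to -0.14, edgeR adjusted p = 0.0293). The size ran from -0.35 to -0.25 over 18 alternatives, but the call was lost in 8 of them. These were the 3 TPM fits (adjusted p from 0.0631 to 0.0833) and the fits without control b (0.0535), control c (0.0730), UVB a (0.0763), UVB b (0.0823) or UVB c (0.0611).

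Whether Nr1d1 fell more than Nr1d2 was asked from their ratio. The log2 ratio of Nr1d1 to Nr1d2 TPM was 1.08, 1.60, 1.28 and 1.69 in controls a to d and 1.02, 0.56 and 0.35 in UVB a to c. The groups did not overlap, but by a small gap between control a and UVB a. The mean ratio differed by -0.76 (exact two-sided permutation test over 35 splits, p = 0.0571), or 0.171 when adjusted over the 6 pairs of related genes compared. The 6 pairs were chosen after seeing the data, and at least 4 of them would have to reach the smallest p that 35 splits allow, 0.0286, for any to pass, so these adjusted values say little either way.

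Of the PAR bZIP genes, whose proteins act at D-boxes, neither was called. Dbp (NCBI gene 24309) measured 82.8, 104.8, 69.99 and 70.4 CPM in controls a to d and 66.8, 67.2 and 49.7 CPM in UVB a to c. All UVB values lay below all controls, though UVB a and b were close to controls c and d. Its log2 fold change was -0.42 (SE 0.17, 95% interval -0.80 to -0.039, edgeR adjusted p = 0.135). Tef (NCBI gene 29362) measured 72.5 to 109 CPM in controls and 73.6 to 97.3 CPM after UVB, with a log2 fold change of -0.081 (SE 0.16, interval -0.44 to 0.28). The log2 ratio of Dbp to Tef averaged 1.12 ± 0.138 over controls (SD, n = 4) and 0.81 ± 0.375 over UVB libraries (SD, n = 3), a difference of -0.31 (exact permutation p = 0.143, adjusted 0.257).

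The period genes, whose proteins inhibit CLOCK and BMAL1, did not pass, and Per1 and Per2 varied most between control libraries. Per1 (NCBI gene 287422) measured 55.2, 77.1, 99.4 and 34.3 CPM in controls a to d and 31.7, 48.5 and 56.8 CPM in UVB a to c. Control c was 2.90 times control d, so the controls alone spanned more than the groups differed. The log2 fold change was -0.54 (SE 0.36, 95% interval -1.39 to 0.30, edgeR adjusted p = 0.362). Per2 (NCBI gene 63840) measured 32.8, 36.3, 45.6 and 16.2 CPM in controls and 29.8, 32.7 and 38.8 CPM after UVB, again highest in control c and lowest in control d. Its log2 fold change was 0.044 (SE 0.30, interval -0.67 to 0.75), and -0.18 without control d. Per3 (NCBI gene 78962) was steadier, at 40.2 to 59.7 CPM in controls and 41.5 to 48.0 CPM after UVB (-0.16, SE 0.12, interval -0.44 to 0.12).

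The ratio of Per1 to Per2 within a library separated the groups where neither gene alone did. The log2 ratio of Per1 to Per2 TPM was 1.30, 1.63, 1.67 and 1.62 in controls a to d and 0.63, 1.11 and 1.10 in UVB a to c. Every UVB library lay below every control. The means were 1.55 ± 0.174 (SD, n = 4) and 0.95 ± 0.273 (SD, n = 3), a difference of -0.61 with an exact two-sided permutation p of 0.0286. That is the smallest p that 35 splits can give, and it became 0.171 when adjusted over the 6 pairs, which does not pass. The ratios of Per1 to Per3 (difference -0.36, exact permutation p = 0.400, adjusted 0.457) and of Per2 to Per3 (0.25, p = 0.457, adjusted 0.457) overlapped between the groups.

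**Figure D2:**
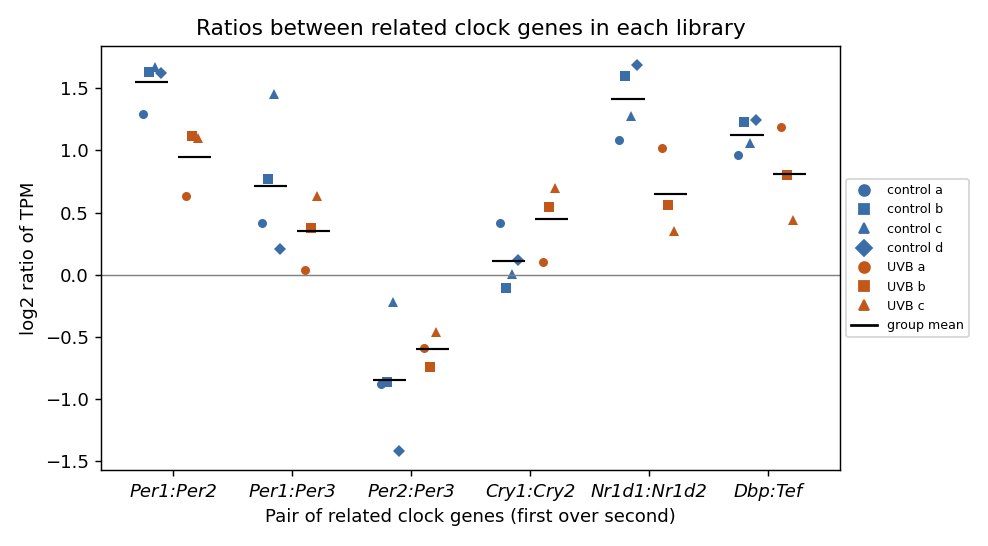
The log2 ratio of TPM between related clock genes in each library, with a bar at each group mean. The Per1:Per2 and Nr1d1:Nr1d2 ratios of the UVB libraries lie below those of all 4 controls, and the other 4 pairs overlap.

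The spread of Per1 and Per2 was large for their level. The coefficient of variation over the 4 controls was 42.2% for Per1 and 37.4% for Per2, against a median of 6.60% for the 6011 genes with a control mean of 20 to 150 CPM. Those values exceeded 99.8% and 99.6% of these genes. Nr1d1 (22.7%), Cry1 (22.7%), Dbp (19.9%), Tef (18.9%) and Per3 (16.4%) lay above 92.8% to 97.3% of them, whereas Clock (3.33%) was above 14.1%. These percentages describe the 4 libraries and carry no test.

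Some genes of a glucocorticoid-induced list, chosen with earlier results of these data known, also varied widely between libraries. The 4 described next were chosen after their values were seen. Tsc22d3 (GILZ), a classic glucocorticoid target, measured 47.1, 68.1, 90.6 and 30.2 CPM in controls a to d and 32.1, 49.4 and 67.5 CPM in UVB a to c. The libraries stood in the same order for Per1, Per2 and Tsc22d3 within each group: c, b, a, d among controls and c, b, a after UVB. Of the 11 tested genes of the list, Tsc22d3 was the 1 with both orders, which 0.496% of all 13709 genes tested had. The control order was held by 2 of 11, and by 375 of all 13709 genes. The UVB order was held by 3 of 11, and by 2012 of all 13709. Library c was highest in both groups for 5 of 11, and for 833 of all 13709. Others ran differently: Cebpd measured 26.2, 21.3 and 13.2 CPM in UVB a to c, and Sgk1 was highest in control a (117 CPM) and UVB a (75.7 CPM). Zbtb16 (2.05, 8.59, 16.7 and 2.56 CPM in controls, 2.56, 4.76 and 11.02 CPM after UVB) and Klf9 (21.4, 29.9, 37.2 and 22.8, then 22.8, 27.7 and 34.1 CPM) had that order after UVB, and among controls except that a and d changed places. Fkbp5, the gene of a chaperone of the hormone's receptor, stood at 122 CPM in control c and 97.7 CPM in UVB c, against 34.3 to 52.9 CPM elsewhere. None of these 4 genes passed the test between groups, at edgeR adjusted p-values from 0.719 to 0.966, and each changed sign when a single library was left out. The part of hormone level or time of day in the Per1 and Per2 values was not tested.

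**Figure D3:**
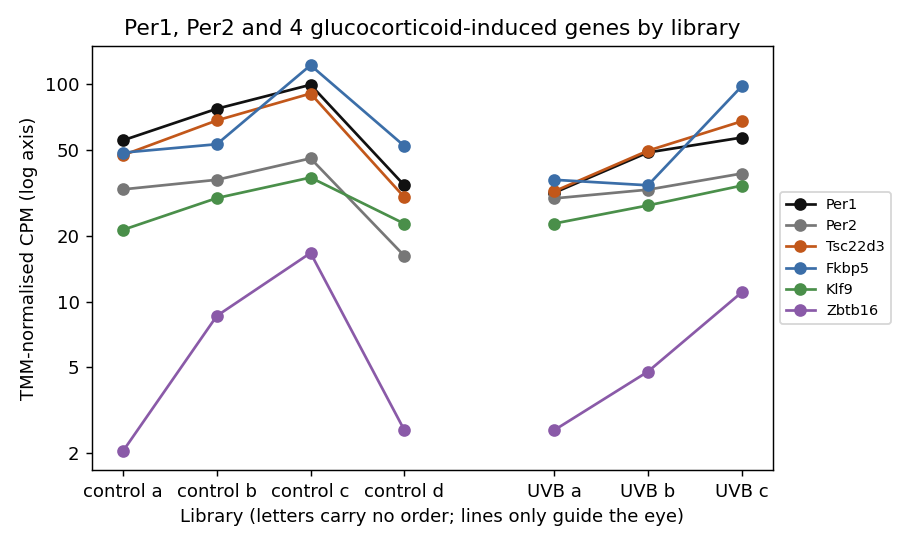
Per1, Per2, Tsc22d3, Fkbp5, Klf9 and Zbtb16 in each library, in TMM-normalised CPM on a log axis; lines only guide the eye between libraries. In both groups library c is highest for all 6 genes, from 16.7 CPM for Zbtb16 to 122 CPM for Fkbp5 in control c. Tsc22d3, Fkbp5, Klf9 and Zbtb16 were chosen after their values were seen. Library c was highest in both groups for 5 of the 11 tested genes of their list.

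Over the whole glucocorticoid list, 3 of 11 tested members passed, 1 higher and 2 lower, where 13.0% of all genes tested passed. Sgk1, a kinase gene that controls sodium transport, fell by 0.58 on the log2 scale (SE 0.092, edgeR adjusted p = 0.00678). Pdk4, which restrains pyruvate oxidation, fell by 0.42 (SE 0.10, adjusted p = 0.0307), a call lost without control c (0.0783), control d (0.0819), UVB a (0.0900) or UVB c (0.0976). The metallothionein gene Mt2A rose by 0.74 (SE 0.12, adjusted p = 0.00823). The list's median log2 fold change was -0.25, with 4 of 11 above 0.

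The cryptochrome genes, partners of the PER proteins, were not called. Cry1 (NCBI gene 299691) measured 28.7, 19.0, 20.1 and 18.0 CPM in controls a to d and 21.4, 30.3 and 32.7 CPM in UVB a to c. Control a stood with the upper UVB libraries and UVB a with the other controls, so the groups overlapped. Its log2 fold change was 0.39 (SE 0.19, 95% interval -0.046 to 0.83, edgeR adjusted p = 0.212), and Cry1 passed without control a (0.56, adjusted p = 0.0430). Cry2 (NCBI gene 170917) measured 22.7 to 29.3 CPM in controls and 27.3 to 28.4 CPM after UVB (0.045, SE 0.093, interval -0.16 to 0.25). The log2 ratio of Cry1 to Cry2 differed by 0.34 (exact permutation p = 0.171, adjusted 0.257).

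Clock (NCBI gene 60447), the activator subunit, varied little: 105.7, 97.5, 100.5 and 101 CPM in controls a to d and 107, 109 and 121 CPM in UVB a to c. All UVB values lay above all controls, UVB a only narrowly. The log2 fold change was 0.15 (SE 0.062, 95% interval 0.0093 to 0.29, edgeR adjusted p = 0.145). In the GRCr8 annotation Clock, Per2, Cry1 and Cry2 each overlap a locus without a gene name, so with strand handling not stated a share of their reads could belong to those loci.

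**Figure D4:**
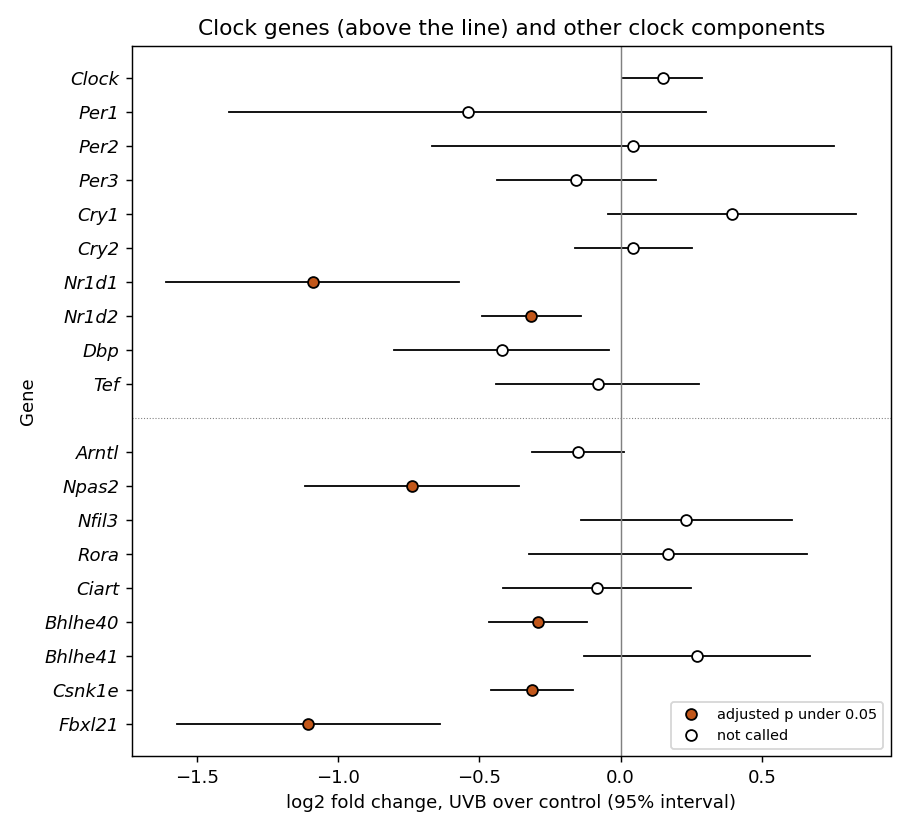
Log2 fold change of UVB over control with its 95% interval, for the 10 clock genes above the dotted line and 9 other clock components below it; filled points have an adjusted p under 0.05. Nr1d1 at -1.09 and Fbxl21 at -1.11 lie farthest from 0, and every filled point lies below 0.

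Other parts of the loop came from lists that were chosen with earlier results of these data known. Among 5 tested genes of the arm that includes the partners and regulators of Bmal1, 2 passed, both lower, where 6.74% of all genes were lower. Npas2, which encodes the relative of CLOCK, measured 22.0, 26.5, 30.2 and 36.3 CPM in controls a to d and 17.5, 14.8 and 19.3 CPM in UVB a to c. The groups did not overlap, and Npas2 fell by 0.74 on the log2 scale (SE 0.17, edgeR adjusted p = 0.0246). Its adjusted p exceeded the threshold when control c (0.0643), UVB a (0.0656) or UVB b (0.0829) was left out, and under log2(TPM + 1) without a filter (0.0570).

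Bmal1, which the files list under the older symbol Arntl, measured 42.2, 37.4, 40.9 and 43.8 CPM in controls a to d and 35.2, 37.7 and 38.2 CPM in UVB a to c. Only control b reached into the UVB range. Its log2 fold change was -0.15 (SE 0.073, 95% interval -0.31 to 0.013, edgeR adjusted p = 0.202). Nfil3, a repressor at D-boxes (0.23, SE 0.16, adjusted p = 0.382), and Rora, which encodes a ROR receptor (0.17, SE 0.21, adjusted p = 0.647), did not pass. The list's median was -0.15.

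Among 8 tested clock-driven repressors and outputs, 1 passed, a share near the 13.0% of all genes. Bhlhe40 (DEC1), a repressor that competes for E-boxes, measured 73.0, 82.0, 74.4 and 80.7 CPM in controls a to d and 67.5, 65.4 and 57.1 CPM in UVB a to c. It fell by 0.29 (SE 0.077, edgeR adjusted p = 0.0358), but lost its call in 8 alternatives. These were the 3 TPM fits (0.0504 to 0.0673) and the omission of control b (0.0864), c (0.0671) or d (0.0977) or of UVB b (0.0709) or c (0.103). Its relative Bhlhe41 had a log2 fold change of 0.27 (SE 0.17, adjusted p = 0.341) and the repressor gene Ciart one of -0.084 (SE 0.15, adjusted p = 0.745). The list's median was 0.13; Hlf, the other PAR bZIP gene, was not analysed here.

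Among 19 tested genes for kinases, ubiquitin ligases and partners of clock proteins, 3 passed, all lower. That share was near the 13.0% of all genes called in either direction (6.74% lower). Fbxl21, whose F-box protein binds the cryptochromes, measured 95.5, 99.3, 142 and 127 CPM in controls a to d and 69.6, 49.2 and 43.2 CPM in UVB a to c. The groups did not overlap, and Fbxl21 fell by 1.11 on the log2 scale (SE 0.20, edgeR adjusted p = 0.0143). Csnk1e, a casein kinase gene whose product phosphorylates the PER proteins, measured 59.1 to 64.8 and 47.0 to 51.2 CPM and fell by 0.31 (SE 0.064, adjusted p = 0.0156). Without UVB b the adjusted p was 0.0566 for Fbxl21 and 0.0536 for Csnk1e. The list's median was -0.011, and the related kinase gene Csnk1d had a log2 fold change of 0.015 (SE 0.057).

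Profiles most like those of the called genes were sought among 10690 other genes with a mean of at least 5 CPM, by the root mean square difference of log2 CPM centred on the control mean over the 7 libraries. Nearest to Nr1d1 was Pllp, the gene of the membrane protein plasmolipin, at a distance of 0.094, with a log2 fold change of -1.08. An unnamed locus (0.15) and Adh6, an alcohol dehydrogenase gene (0.15, log2 fold change -1.08), came next. Adh6 was not called (edgeR adjusted p = 0.0542). Nearest to Nr1d2 were Ino80d, a chromatin remodeller subunit gene (0.050), an unnamed gene (0.052) and Erlec1, the gene of a lectin of the endoplasmic reticulum (0.057). That unnamed gene near Nr1d2 was not called (edgeR adjusted p = 0.134). Fold changes close to those of the called genes follow from how the profiles were sought. These distances describe the 7 libraries and carry no test.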

How the data were processed

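RNA sequencing of 7 meibomian gland samples, 4 control and 3 UVB, was analysed from 2 tables. The authors deposited expected counts (estimated reads per gene, not normalised; 12.5% of values not whole) and TPM values scaled by the authors, which summed over the genes used here to 82.0% to 84.1% of the full TPM total. Per the submitters' processing notes, FastQC, Trimmomatic, DRAGEN and Picard were used with build rn7; their roles, the annotation and strand handling are not given in the sources used here. Commas inside gene names displaced cells in 2280 rows; the last 7 fields of each line were taken, and 5 rows lacking a value were left out. Column names give the group of a library but match no replicate number.

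Counts were rounded and tested in edgeR 4.0.16 (R 4.3.3) by the quasi-likelihood test with TMM factors, filterByExpr and robust estimation, over all 13709 genes kept, with Benjamini-Hochberg adjustment and a two-sided threshold of 0.05. The SE of a log2 fold change is its size divided by the square root of F. Pair ratios, compared by exact permutation, were chosen after seeing the data, as was the sum of Nr1d1 and Thra. Alternatives were DESeq2 1.42.0, limma-voom and limma on log2(TPM + pseudocount) (limma 3.58.1), other scalings and filters, and leaving out each library. Fits were tested on simulated data. The clock genes, 6 gene lists and 12 marker lists were chosen with earlier results of these data known. Named genes are all 10 clock genes, 7 set components, up to 4 called members of each list (2 called members, counted with their lists, are not reported here), and the 3 nearest profiles of each called clock gene; Tsc22d3, Zbtb16, Klf9, Fkbp5, Cebpd, Csnk1d, Fos, Rbm3 and Thra were named after their values were seen. Marker genes were also named after their values were seen. RefSeq GRCr8 tables served for windows before annotated starts, names and overlaps. Median log2 fold changes of all genes stayed between -0.0087 and 0.0068 under every scaling and filter.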

Additional observations from a re-analysis of the deposited data

Results flagged for a closer look

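Among 37 values compared within the 4 controls, 3 had a library far from the other 3 by Dixon's gap ratio at the 95% level. Chance marks about 1 in 20 of values fixed in advance. The 37 include genes and pair ratios chosen after seeing the data, so their count cannot be set against that rate. Ciart stood at 116 CPM in control a while controls b to d held 86.3 to 88.1 CPM, so the gap took 0.941 of the group's range. For Fkbp5, control c stood at 122 CPM and the others at 48.4 to 52.9 CPM (ratio 0.939). For the log2 ratio of Per1 to Per2, control a stood at 1.30 and the others at 1.62 to 1.67 (ratio 0.874); without control a the difference between the groups was -0.69. UVB libraries, being 3, were not compared in this way.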

How the results depend on the processing

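No paired analysis was possible because table columns show a library's group and not its labelled replicate. The number of called clock genes was 2 under DESeq2, limma-voom, the 3 other scalings, the 2 other count filters and the fit without robust estimation, and 1 (Nr1d1) under log2(TPM + 1) with and without a filter and log2(TPM + 0.1). Leaving out one replicate at a time it ran from 0 (without UVB b; 3 lower and 1 higher at an unadjusted p under 0.05 in edgeR) to 3 (without control a, which added Cry1). Over those 7 fits the genes called in all ran from 851 to 1898, higher from 421 to 927 and lower from 430 to 971; log2(TPM + 1) without a filter gave 571 lower. Signs that turned when a replicate was left out were those of Per2 (range -0.18 to 0.25), Cry2 (-0.024 to 0.092), Tef (-0.18 to 0.029), Ciart (-0.25 to 0.032), Tsc22d3 (-0.53 to 0.038), Zbtb16 (-1.04 to 0.48), Klf9 (-0.14 to 0.19) and Fkbp5 (-0.97 to 0.14), none of them called; the cause was not tested. Thra lost its call in 10 alternatives (adjusted p up to 0.123): upper quartile factors, library size alone, the 3 TPM fits, and without control b, c or d or UVB b or c. The Per1:Per2 difference ran from -0.69 to -0.45 and that of Nr1d1:Nr1d2 from -0.95 to -0.62 when a replicate was left out.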

Other observations

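Other genes that could accompany clock changes came from lists that were likewise chosen with earlier results known. Of 10 tested immediate early genes, which answer acute stimuli, 1 passed higher and 1 lower, where 13.0% of all genes passed. Fosl1, an AP-1 subunit gene, averaged 8.97 ± 1.13 CPM in controls (SD, n = 4) and 16.0 ± 3.81 CPM after UVB (SD, n = 3). It rose by 0.84 on the log2 scale (SE 0.17, edgeR adjusted p = 0.0159), with an adjusted p of 0.0517 without UVB c; its counts were not whole in 7 of 7 libraries. Egr2, a zinc finger gene, fell from 106 to 67.7 CPM, by 0.65 on the log2 scale (SE 0.091, adjusted p = 0.00453). Fos stood apart in control a (21.1 CPM) and UVB a (26.9 CPM), against 4.43 to 7.51 CPM in the other 5 libraries, a pattern seen after its values were examined.

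Of 6 tested temperature-responsive genes 1 passed, again beside 13.0% of all genes. Dnajb1, a cochaperone gene of the heat shock response, rose from 70.4 to 85.0 CPM (log2 fold change 0.27, SE 0.067, edgeR adjusted p = 0.0299). Omitting control b (0.0754), c (0.0673) or d (0.0789), or UVB a (0.0857) or b (0.0747), ended the call, as did log2(TPM + 1) without a filter (0.0528). Rbm3, a cold-induced RNA-binding protein gene, did not pass (0.26, SE 0.088, adjusted p = 0.0879).

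The TPM of Nr1d1 was 2.14, 4.21, 2.71 and 2.99 times that of Bmal1 (listed as Arntl) in controls a to d and 2.11, 1.45 and 1.27 times in UVB a to c. Control a and UVB a stood next to each other. Ratios to Bmal1 were also taken for Dbp, Per1, Per2 and Cry1, and in each of them the groups overlapped. None of these ratios was tested.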
